A study of Homo sapiens with 19 samples.

Results

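The genes described here act in homologous recombination, in the Fanconi pathway of crosslink repair and in mismatch repair, together with the checkpoint kinases that signal DNA damage. They were selected by gene name, 37 in all, by a rule that uses no measured value, with earlier results of these data known. Each of the 3 expression tables of the study listed all 37, among 19021 genes in the culture table, 26955 in the siSCIRT table and 28870 in the siEZH2 table.

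Every library came from MDA-MB-231, an established triple-negative human breast cancer cell line, and 8 groups made up the 19 libraries. The culture table held spheres grown for 16 h or for 5 d in suspension on non-adherent plates, in DMEM/F12 with B27, 20 ng/ml EGF and 20 ng/ml FGF, and adherent cells grown in DMEM with 10% fetal calf serum (n = 2 each). The siSCIRT table held cells transfected with 1 of 2 siRNAs against the long noncoding RNA SCIRT, named siSCIRT 1 and siSCIRT 2, or with the control siRNA siNC (n = 3 each). The siEZH2 table held cells transfected with an siRNA against EZH2, a histone methyltransferase, or with its own siNC (n = 2 each). Transfected cells, the siNC controls included, spent 48 h in the sphere medium, so neither siRNA table holds adherent cells. Adherent cells and spheres differ in attachment, serum, medium and growth factors at once, and the effects of these cannot be told apart. All groups are 1 cell line, and nothing states that the replicates were separate cultures, so the p-values reflect the spread among these libraries alone, which may be technical.

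Homologous recombination repairs broken DNA with an intact copy as template: ends are resected, the exposed strand invades the copy with the help of BRCA2 and its partners, and the joined molecules are then resolved. The Fanconi core complex, a ubiquitin ligase, marks the FANCD2-FANCI pair at crosslinks that block replication, and mismatch repair corrects errors left by the polymerase. Recombination uses the sister copy, so it works mainly in S and G2 phase, and many of its genes are transcribed more in cells that are replicating.

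Depth was 6104222 to 14781941 reads in the culture libraries, with 5 d library 2 lowest, 27989577 to 38955312 in the siEZH2 libraries and 38635418 to 62218847 in the siSCIRT libraries. Values below are normalized counts, that is reads divided by the size factor of each library. The vimentin gene VIM, high in this mesenchymal-like line, ranged over all libraries between 31547 and 115456 normalized counts, and the keratins KRT8, KRT18 and KRT19 were at 2122 or more. Of 10 blood, vessel and stromal markers, 6 were listed in the culture table. Their summed level was 1138 to 1147 in 16 h spheres and 105 to 123 in 5 d spheres, against 65.1 to 68.7 in adherent cells. DCN alone gave 1006 ± 10.3 of this in 16 h spheres (SD, n = 2), and its part in the results was not tested. The siRNA targets were lower in the libraries labelled with them: SCIRT fell by 1.16 ± 0.16 with siSCIRT 1 and by 1.10 ± 0.16 with siSCIRT 2, and EZH2 fell by 0.92 ± 0.15 with siEZH2, on the log2 scale (standard error of the fit). EZH2 also fell with the SCIRT siRNAs, by 0.53 ± 0.08 and 0.50 ± 0.08. In bulk RNA, fewer cells of a kind and less RNA per cell cannot be told apart.

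Start-site windows, from 250 bases before the start to 50 bases from it onwards, were in RefSeq (GRCh38.p14) for 34 of the 37 genes, with more than 1 window for some. They were searched on both strands for 3 short motifs that textbooks tie to cell cycle genes. An E2F-type word (TTTGGCGC, TTTCCCGC, TTTGCCGC or TTTCGCGC) was in 7 of the 34, or 20.6%. The same words were in 6.73% of 9551 protein-coding genes tested for expression here and in 3.99% of all 27305 genes with a window. The CHR word TTTGAA was in 5 of 34, or 14.7%, against 13.9% of the tested protein-coding genes. The CCAAT box was in 18 of 34, or 52.9%, against 43.7%. The E2F-type stretches are printed because the 5 genes listed first fell in 16 h spheres and the last 2, which hold the same kind of word, did not pass the test there. Letters run 5′ to 3′ on the strand of the gene, and capitals mark the word or its reverse complement.
XRCC2, chr7:152676102-152676131, minus strand: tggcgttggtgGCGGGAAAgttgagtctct
EXO1, chr1:241848197-241848226, plus strand: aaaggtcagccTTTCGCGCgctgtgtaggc
FANCD2, chr3:10026424-10026453, plus strand: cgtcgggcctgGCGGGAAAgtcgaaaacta
FANCC, chr9:95317737-95317766, minus strand: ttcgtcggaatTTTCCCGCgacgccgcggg
FANCC, chr9:95317863-95317892, minus strand: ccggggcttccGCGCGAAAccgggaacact
FANCA, chr16:89816801-89816830, minus strand: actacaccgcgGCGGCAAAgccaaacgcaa
MSH6, chr2:47783137-47783166, plus strand: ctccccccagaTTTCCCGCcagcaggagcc
PMS2, chr7:6009131-6009160, minus strand: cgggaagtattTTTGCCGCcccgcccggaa
Counted from the start site as 0, the word began at 21 in XRCC2, 4 in EXO1, -2 in FANCD2, -46 and -172 in FANCC, -172 in FANCA, 3 in MSH6 and -43 in PMS2. A match describes letters in a window and is not a bound site.

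**Figure D1:**
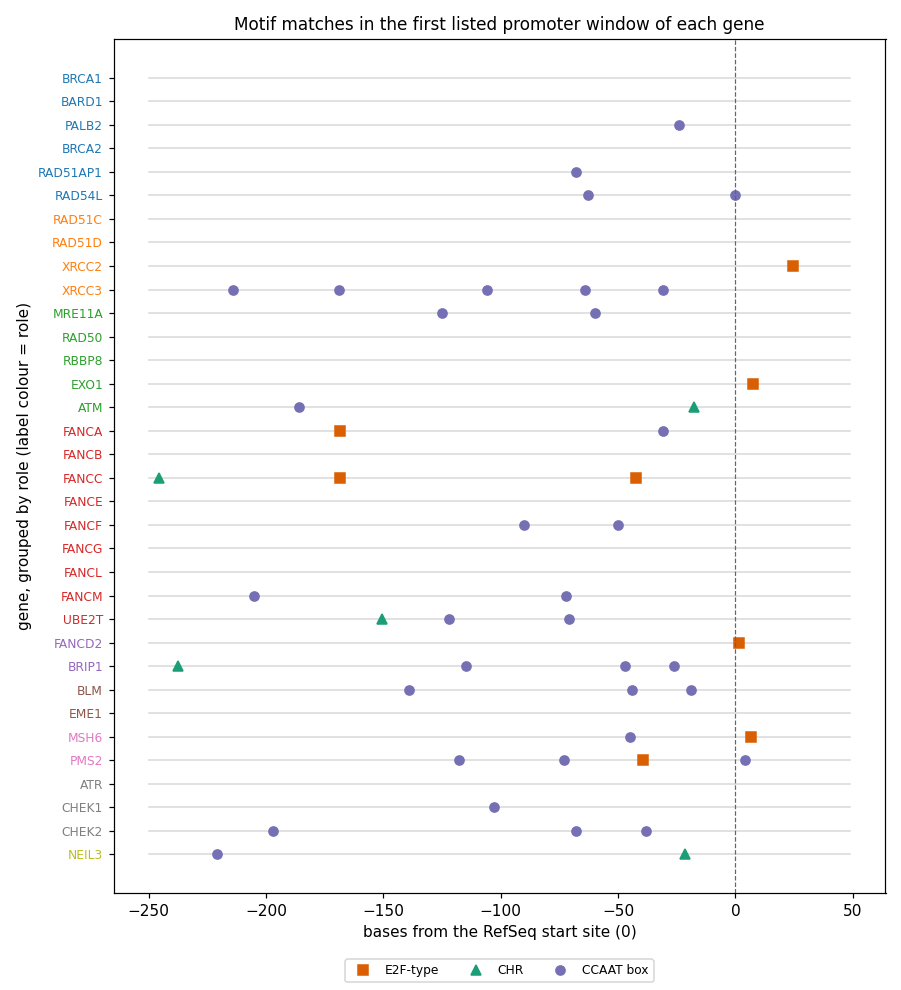
Matches to the E2F-type words (squares), the CHR word (triangles) and the CCAAT box (circles) in the first listed RefSeq window of 34 repair genes, by distance in bases from the start site at 0 (x axis). Grey lines are the windows searched. E2F-type words cluster near the start in EXO1, FANCD2, MSH6 and XRCC2, and most genes hold none.

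In spheres at 16 h, the recombination and Fanconi genes were mostly lower than in adherent cells, while ATM was higher. Of the 36 genes tested in the culture table, 22 fell and 2 rose at 16 h, by limma at an adjusted p under 0.05. Over all 13789 genes tested, 26.5% were lower and 27.4% higher, so culture changed much of the transcriptome. A fall of at least 2-fold was called for 16 of the 36 genes, against 8.6% of all genes. The median log2 fold change of the 36 was -0.76, against -0.01 over all genes. At 5 d, 17 fell and 6 rose against adherent cells, where 28.9% of all genes were lower and 26.3% higher, and the median was -0.46. Falls of at least 2-fold numbered 9 at 5 d, against 6.95% of all genes. The gene left untested was RAD54B, a DNA translocase, whose mean stayed under the minimum of 10: it had 15 and 23 reads in adherent cells, 2 and 3 at 16 h and 1 and 2 at 5 d.

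**Figure D2:**
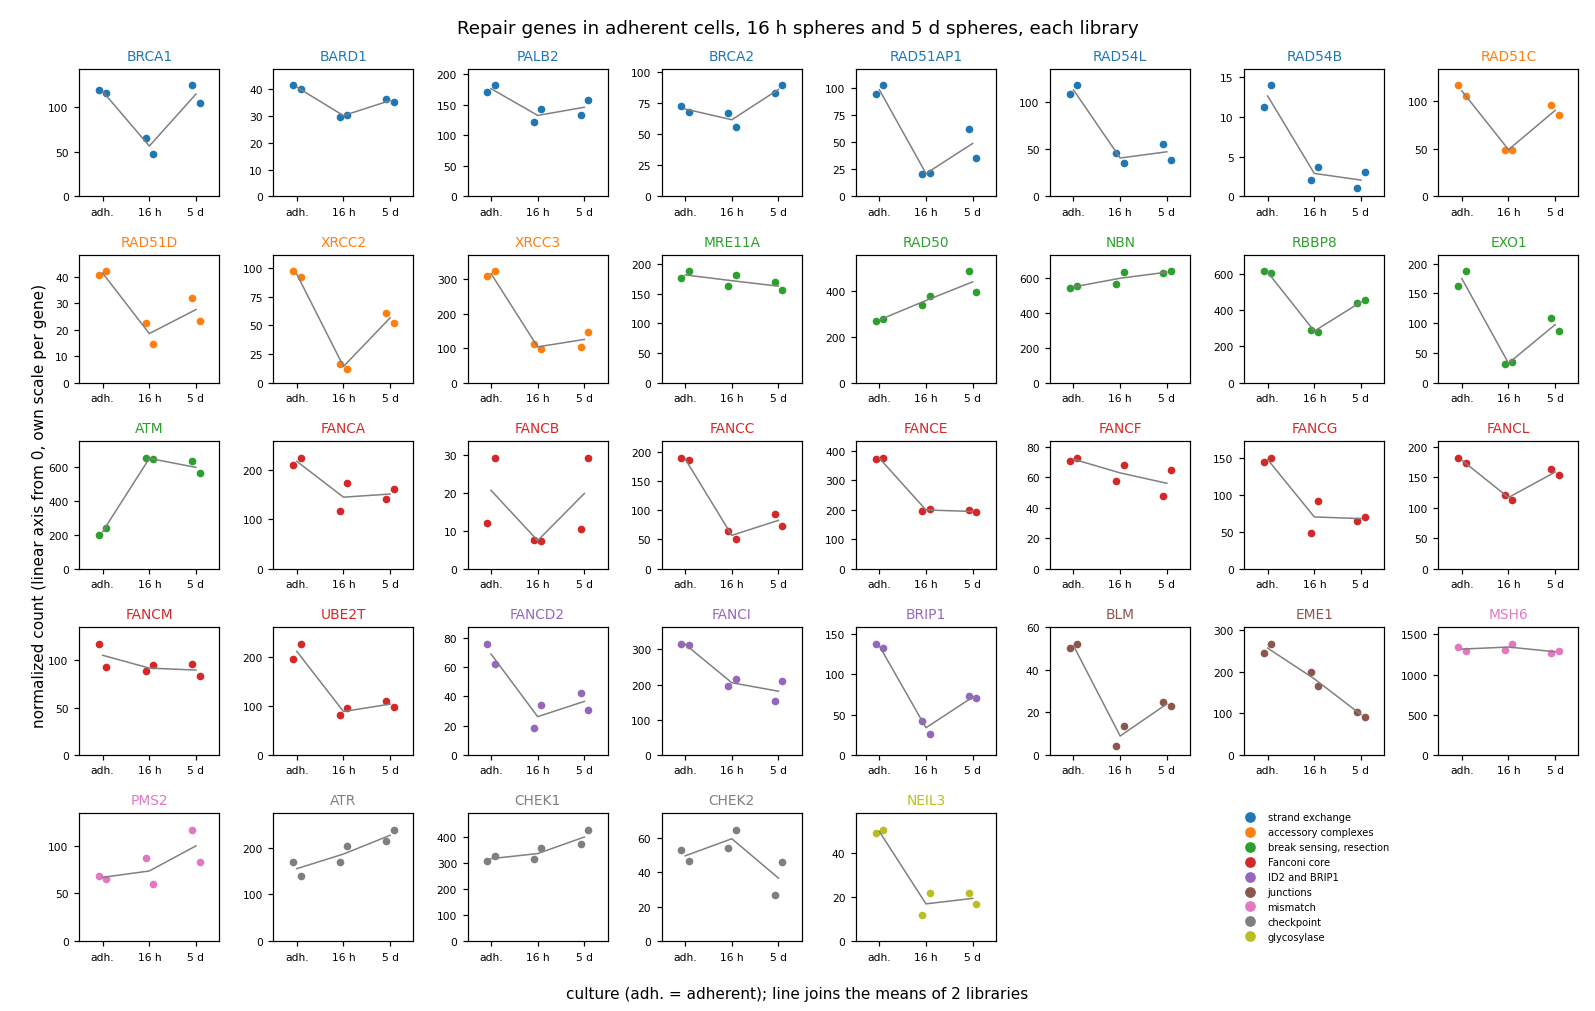
Normalized counts of the 37 repair genes (y axis, linear from 0, own scale per gene) in adherent cells, 16 h spheres and 5 d spheres. Points are libraries, 2 per group, and the line joins group means. XRCC2, EXO1, RAD51AP1 and BRIP1 dip at 16 h and stand higher again at 5 d, ATM stands higher at both times, and MSH6 is level.

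Among the factors that drive strand exchange, 4 of the 6 tested fell at 16 h. RAD51AP1, which helps to pair the strands, had 94.3 and 102 normalized counts in adherent cells, 20.3 and 22.0 at 16 h, and 62.1 and 35.4 at 5 d. No library of spheres reached the adherent level, and the log2 fold change was -2.17 ± 0.30 at 16 h (limma, adjusted p = 1e-07) and -1.05 ± 0.30 at 5 d (adjusted p = 0.0033). The 5 d call was lost without 5 d library 2 (-0.65, adjusted p = 0.0929). RAD54L, a DNA translocase of recombination, had 108 and 118 normalized counts in adherent cells, 45.8 and 35.4 at 16 h and 55.9 and 38.5 at 5 d. It stayed low at both times, at -1.46 ± 0.27 on the log2 scale for 16 h (adjusted p = 1.4e-05) and -1.26 ± 0.27 for 5 d (adjusted p = 0.00011). Of its exon bases, 18.0% overlap LRRC41 on the other strand, and the library kit does not mark strand, so its level is uncertain. LRRC41 averaged 760 normalized counts over the culture libraries, against 66.8 for RAD54L.

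BRCA1 behaved otherwise over time. This ubiquitin ligase, which promotes resection and strand exchange, had 119 and 116 normalized counts in adherent cells, 65.0 and 47.6 at 16 h and 124 and 105 at 5 d. The 16 h libraries stood below all others, while the 5 d libraries overlapped the adherent ones. Its log2 fold change was -1.06 ± 0.22 at 16 h (limma, adjusted p = 7.7e-05) and -0.04 ± 0.22 at 5 d (adjusted p = 0.88). Its partners moved little: PALB2, the bridge between BRCA1 and BRCA2, fell at 16 h (-0.41 ± 0.17, adjusted p = 0.037). That call was lost without either adherent library or without 16 h library 1, at adjusted p between 0.105 and 0.204, and with quantile scaling, DESeq2 or limma without a variance trend (adjusted p = 0.0658, 0.0975 and 0.0568). BARD1, which pairs with BRCA1, had log2 fold changes of -0.42 ± 0.32 and -0.18 ± 0.32, and BRCA2, a mediator of strand exchange, of -0.19 ± 0.24 and 0.29 ± 0.24 at 16 h and 5 d, none past the threshold.

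RAD51C, RAD51D, XRCC2 and XRCC3, which form accessory complexes of recombination, all fell at 16 h by at least 2-fold. XRCC2 had the largest fall of the 36 genes: it had 97.3 and 92.5 normalized counts in adherent cells, 16.0 and 12.2 at 16 h, and 61.1 and 52.4 at 5 d. In reads, the 16 h libraries held 15 and 10. Its 3 groups did not overlap, and the log2 fold change was -2.68 ± 0.30 at 16 h (limma, adjusted p = 9.2e-10) and -0.74 ± 0.30 at 5 d (adjusted p = 0.036). The 5 d call was lost without either adherent library or without 5 d library 2 (adjusted p between 0.139 and 0.196), and with DESeq2 (adjusted p = 0.0671). RAD51C, which pairs with XRCC3, had 116 and 105 normalized counts in adherent cells, 49.03 and 48.85 at 16 h and 95.2 and 84.7 at 5 d. It fell at 16 h (-1.16 ± 0.23, adjusted p = 3.8e-05), and at 5 d its difference of -0.29 ± 0.23 did not pass the test. RAD51D fell at 16 h (-1.15 ± 0.37, adjusted p = 0.0087), a call lost without either adherent library or without 16 h library 2 (adjusted p between 0.0599 and 0.0844). XRCC3, the partner of RAD51C, had 311 and 323 normalized counts in adherent cells, 111 and 96.5 at 16 h and 102 and 148 at 5 d. It fell by 1.61 ± 0.17 and 1.36 ± 0.17 on the log2 scale, but 45.3% of its exon bases overlap KLC1 on the other strand.

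The genes that sense and process DNA ends split in direction. ATM, the kinase activated at breaks, had 195 and 240.5 normalized counts in adherent cells, 653 and 644 at 16 h and 630.4 and 561 at 5 d. Every sphere library was more than 2 times the adherent libraries, and the log2 fold change was 1.58 ± 0.10 at 16 h (limma, adjusted p = 4.4e-16) and 1.45 ± 0.10 at 5 d (adjusted p = 6.3e-15). Of the MRE11-RAD50-NBN complex, which binds broken ends, RAD50 had 267 and 278 normalized counts in adherent cells, 337 and 377 at 16 h and 483 and 393 at 5 d. The groups did not overlap, and RAD50 rose by 0.39 ± 0.11 at 16 h (adjusted p = 0.0039) and 0.68 ± 0.11 at 5 d (adjusted p = 3.7e-06). Without 16 h library 2 the first of these missed the threshold (0.31, adjusted p = 0.0784), as it did with limma without a trend (adjusted p = 0.0682). NBN rose at 5 d by 0.21 ± 0.08 (adjusted p = 0.035), a call lost without any 1 of the 4 libraries compared (adjusted p between 0.0632 and 0.153), and with TMM scaling, DESeq2 or no trend (adjusted p = 0.0503, 0.0873 and 0.104). MRE11A, the nuclease of the complex, passed the test at neither time (-0.08 ± 0.15 and -0.16 ± 0.15).

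The resection factors went the other way from ATM and RAD50. EXO1, the exonuclease of long-range resection and of mismatch repair, had 163 and 187 normalized counts in adherent cells, 30.9 and 34.2 at 16 h and 109 and 86.3 at 5 d. The 3 groups did not overlap, with a log2 fold change of -2.39 ± 0.22 at 16 h (limma, adjusted p = 1.3e-11) and -0.84 ± 0.22 at 5 d (adjusted p = 0.0017). Without adherent library 2 the 5 d value was -0.75 (adjusted p = 0.0546). RBBP8, also called CtIP, which starts resection, had 615 and 606 normalized counts in adherent cells, 292 and 277 at 16 h and 438 and 454 at 5 d. The log2 fold change was -1.10 ± 0.10 at 16 h (adjusted p = 1.8e-12), and the 5 d value was -0.45 ± 0.10 (adjusted p = 0.00013).

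In the Fanconi core complex, counted together with its partner enzyme UBE2T, 6 of 9 genes fell at 16 h and 5 of 9 at 5 d, and none rose. FANCC, a core subunit that pairs with FANCE and FANCF, had 190.2 and 186 normalized counts in adherent cells, 64.0 and 50.1 at 16 h and 93.2 and 72.4 at 5 d. All sphere libraries were far below the adherent ones, and the log2 fold change was -1.71 ± 0.21 at 16 h (limma, adjusted p = 1e-08) and -1.18 ± 0.21 at 5 d (adjusted p = 1.2e-05). FANCE had 374 and 377 normalized counts in adherent cells, 196 and 203 at 16 h and 198 and 191 at 5 d. It was level between the sphere times, and fell by 0.91 ± 0.13 and 0.95 ± 0.13 on the log2 scale (adjusted p = 1.3e-07 and 6.4e-08). FANCF, the third gene of that subcomplex, had log2 fold changes of -0.20 ± 0.25 and -0.37 ± 0.25 and passed the test at neither time.

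UBE2T, the ubiquitin-conjugating enzyme of the pathway, had 196 and 228 normalized counts in adherent cells, 82.1 and 95.3 at 16 h and 111 and 97.1 at 5 d. Its groups did not overlap with adherent cells, and it fell by 1.25 ± 0.18 at 16 h and 1.02 ± 0.18 at 5 d (limma, adjusted p = 3.8e-07 and 1.3e-05). FANCL, the ligase subunit that UBE2T works with, fell at 16 h (-0.61 ± 0.17, adjusted p = 0.0022) and not past the threshold at 5 d (-0.17 ± 0.17). VRK2 overlaps 26.6% of its exon bases on the other strand. FANCG, which binds FANCA, had 146 and 151 normalized counts in adherent cells, 49.03 and 91.6 at 16 h and 65.2 and 70.9 at 5 d. The 16 h libraries differed from each other, and its log2 fold change of -1.13 ± 0.24 (adjusted p = 0.00011) was -0.69 without 16 h library 1 and -1.58 without 16 h library 2. FANCA fell by 0.61 ± 0.17 at 16 h and 0.52 ± 0.17 at 5 d. The 16 h call was lost without 16 h library 1 (-0.33, adjusted p = 0.131) and the 5 d call without adherent library 2 or 5 d library 1 (adjusted p = 0.0819 and 0.0654). Without a trend neither call held (adjusted p = 0.0719 and 0.102), and 22.4% of its exon bases overlap ZNF276. FANCM, the translocase that anchors the complex, and FANCB, an X-linked subunit with 6 to 48 reads per library, passed the test at neither time.

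The targets of the core complex fell at both times. FANCI, the partner that is ubiquitinated with FANCD2, had 316 and 313 normalized counts in adherent cells, 195 and 215 at 16 h and 152 and 210 at 5 d. All sphere libraries were lower, at -0.62 ± 0.14 at 16 h and -0.81 ± 0.14 at 5 d on the log2 scale (limma, adjusted p = 0.00041 and 9.3e-06), and 8.33% of its exon bases overlap POLG. FANCD2 had 76.2 and 62.1 normalized counts in adherent cells, 18.1 and 34.2 at 16 h and 42.4 and 30.8 at 5 d. It fell by 1.43 ± 0.33 at 16 h (adjusted p = 0.00033), with -0.99 without 16 h library 1 and -1.87 without 16 h library 2. At 5 d it fell by 0.91 ± 0.33 (adjusted p = 0.018), a call lost without adherent library 1 or 5 d library 2 (adjusted p = 0.167 and 0.124), and with DESeq2 or no trend (adjusted p = 0.0641 and 0.0928). BRIP1, the helicase also named FANCJ, had 138 and 133 normalized counts in adherent cells, 41.6 and 25.6 at 16 h and 72.5 and 70.9 at 5 d, and fell by 2.02 ± 0.25 and 0.91 ± 0.25 (adjusted p = 1.1e-08 and 0.0024).

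Of the genes that process joined molecules, BLM and EME1 followed different courses. BLM, a helicase that dissolves them, had 50.6 and 52.4 normalized counts in adherent cells, 4.26 and 13.4 at 16 h and 24.8 and 23.1 at 5 d. The 16 h libraries held 4 and 11 reads, and the log2 fold change of -2.59 ± 0.44 (limma, adjusted p = 4.1e-06) was -1.86 without 16 h library 1 and -3.32 without 16 h library 2. At 5 d BLM fell by 1.07 ± 0.44 (adjusted p = 0.037), a call lost without any 1 of the 4 libraries compared (adjusted p between 0.0662 and 0.164), and with DESeq2 or no trend (adjusted p = 0.0624 and 0.137). EME1, the partner of the nuclease MUS81, had 246 and 267 normalized counts in adherent cells, 199 and 166 at 16 h and 102 and 90.9 at 5 d. It was lowest at 5 d, with -0.49 ± 0.16 at 16 h (adjusted p = 0.0095) and -1.40 ± 0.16 at 5 d (adjusted p = 2e-09). The 16 h call was lost without adherent library 2 or 16 h library 2 (adjusted p = 0.121 and 0.113), and LRRC59 overlaps 10.3% of its exon bases. LRRC59 averaged 2112 normalized counts over the culture libraries, against 179 for EME1, so the level of EME1 is uncertain.

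Mismatch repair and checkpoint genes did not fall against adherent cells in these tests. MSH6, which recognises mismatches, had 1344 and 1291 normalized counts in adherent cells, 1301 and 1385 at 16 h and 1272 and 1297 at 5 d. Its groups overlapped and it stood at 0.03 ± 0.06 and -0.04 ± 0.06 on the log2 scale (limma, adjusted p = 0.71 and 0.61), although 21.0% of its exon bases overlap FBXO11. PMS2, a nuclease of mismatch repair, rose at 5 d by 0.55 ± 0.24 (adjusted p = 0.0494), a call lost without either adherent library or without 5 d library 1 (adjusted p between 0.116 and 0.371). It was lost too with no filter on low values, TMM scaling, DESeq2 or no trend (adjusted p = 0.0667, 0.0567, 0.0899 and 0.134). ATR, the kinase activated by stalled forks, had 170.5 and 140.0 normalized counts in adherent cells, 170 and 204 at 16 h and 215 and 239 at 5 d. It rose at 5 d by 0.55 ± 0.15 (adjusted p = 0.0027), and missed the threshold without adherent library 2 (0.41, adjusted p = 0.0872). CHEK1, the kinase below ATR, rose at 5 d by 0.33 ± 0.11 (adjusted p = 0.0105), lost without adherent library 1 or 5 d library 2 (adjusted p = 0.1 and 0.128) and without a trend (adjusted p = 0.0687). CHEK2, the kinase below ATM, had log2 fold changes of 0.26 ± 0.30 and -0.47 ± 0.30. NEIL3, a glycosylase that also unhooks crosslinks, fell by 1.57 ± 0.39 at 16 h and 1.33 ± 0.39 at 5 d (adjusted p = 0.00083 and 0.0041). It rests on few reads: 65 and 83 in adherent cells, 11 and 18 at 16 h and 21 and 11 at 5 d. PMS2, CHEK2, FANCD2 and BRCA1 have near copies elsewhere in the genome, and how shared reads were counted is not given in the sources used here.

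**Figure D3:**
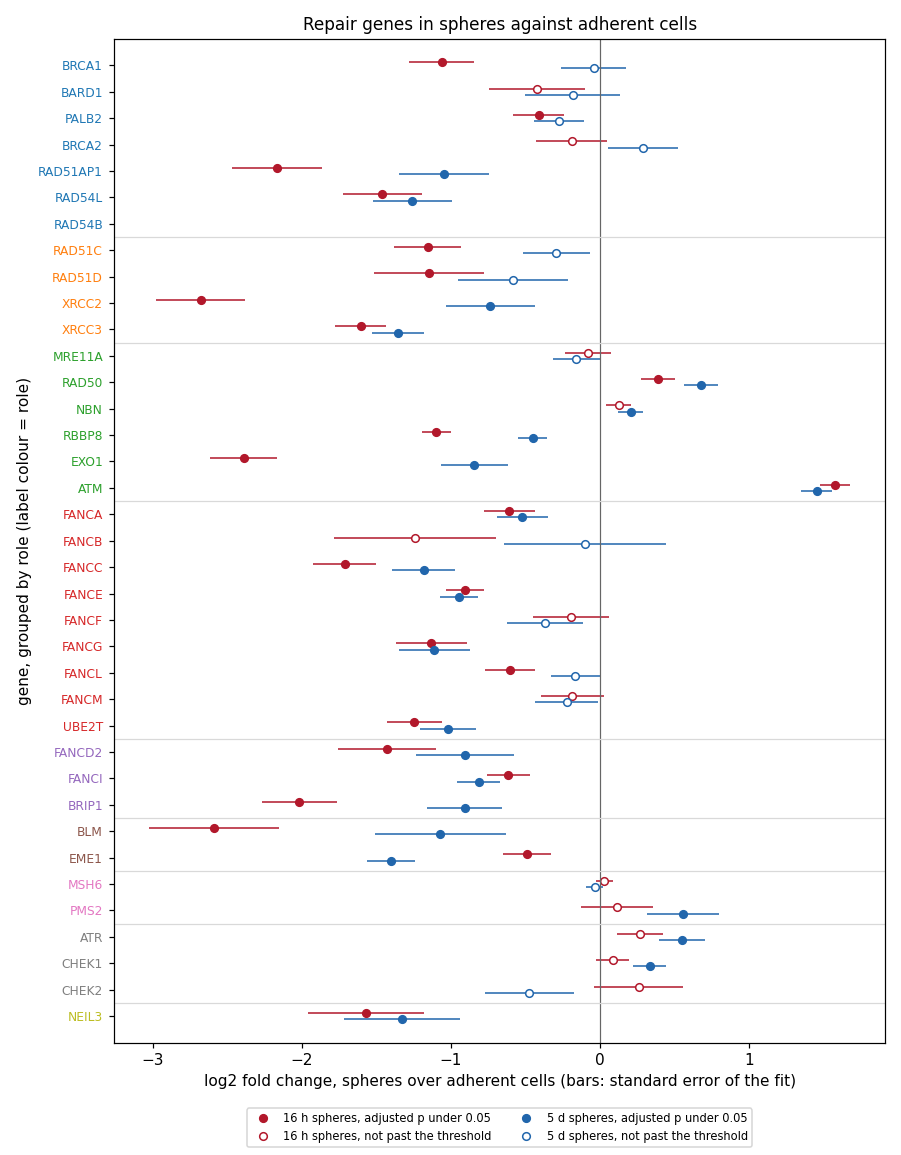
Log2 fold change of 36 repair genes (x axis) in 16 h spheres (red) and 5 d spheres (blue), each over adherent cells, with standard errors of the limma fit. Filled points passed an adjusted p of 0.05, and RAD54B was not tested. Most points lie below 0, XRCC2 is lowest at -2.68 and ATM highest at 1.58, and both contrasts share the adherent libraries.

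Compared directly, 5 d spheres held more of several recombination RNAs than 16 h spheres. Of the 36 genes, 11 were higher at 5 d and 2 lower, where 22.8% and 25.5% of all genes were. Calls were thus common outside the repair genes too, and the count of rises is not far from the share of all genes. The largest rise was that of XRCC2 (1.94 ± 0.30, limma, adjusted p = 1.3e-06), then EXO1 (1.55 ± 0.22, adjusted p = 4.2e-07), BLM (1.52 ± 0.44, adjusted p = 0.0042), RAD51AP1 (1.12 ± 0.30, adjusted p = 0.0023), BRIP1 (1.11 ± 0.25, adjusted p = 0.00038) and BRCA1 (1.02 ± 0.22, adjusted p = 0.00018). RAD51C, RBBP8, FANCC, FANCL and RAD50 rose by less, between 0.29 and 0.86. EME1 fell further (-0.91 ± 0.16, adjusted p = 1.3e-05), and CHEK2 fell by 0.73 ± 0.30 (adjusted p = 0.041). Among these, BLM was lost without 16 h library 1 (0.79, adjusted p = 0.12) and RAD51AP1 without 5 d library 1 (0.72, adjusted p = 0.0818). RAD50 was lost without 16 h library 1 or 5 d library 1 (adjusted p = 0.24 and 0.398). FANCC, FANCL and CHEK2 each hung on both adherent libraries, 16 h library 2 and 5 d library 1, and CHEK2 on 16 h library 1 as well, with adjusted p up to 0.25, 0.103 and 0.381 without them. DESeq2 called none of RAD50, FANCC, FANCL and CHEK2 (adjusted p between 0.0813 and 0.153), limma without a trend called none of RAD50, FANCC, BLM and CHEK2 (adjusted p between 0.071 and 0.147), and FANCC, FANCL and CHEK2 missed the threshold when only these 2 groups were fitted (adjusted p = 0.0991, 0.056 and 0.0527). FANCC and CHEK2 also missed it with no filter on low values, and FANCC with quantile scaling (adjusted p = 0.0504, 0.0554 and 0.0528). FANCA, FANCE, FANCG and UBE2T, which were lower at both times, did not pass the test between the times, with differences between -0.04 and 0.23.

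Other genes of the same pathways, from a list of 71 that excludes the 37, gave a mixed picture. At 16 h, 30 of the 68 tested fell and 11 rose against adherent cells, at 5 d 24 fell and 13 rose, and between the times 20 were higher and 7 lower at 5 d. CLSPN, the claspin that relays ATR signals to CHEK1, had 303 and 260.0 normalized counts in adherent cells, 82.1 and 68.4 at 16 h and 276 and 263 at 5 d. Its dip at 16 h was -1.89 ± 0.16 (limma, adjusted p = 3.4e-13). USP1, which removes ubiquitin from FANCD2, fell at both times (-1.06 ± 0.08 and -1.16 ± 0.08), while RNF168, a ligase at breaks, rose at 5 d by 0.98 ± 0.10. End joining without a template had 3 of 10 genes lower and 2 higher at 16 h, base excision repair 6 of 18 lower and 4 higher, and nucleotide excision repair 5 of 17 lower and 3 higher, with medians of -0.25, -0.10 and -0.02.

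S-phase and mitosis genes moved beside the repair genes, and their part in these results was not tested. All 22 S-phase genes fell at 16 h, with a median of -1.72, and their summed level was 5118 to 5144 normalized counts in 16 h spheres, against 14559 to 14631 in adherent cells. At 5 d, 20 of the 22 were lower than in adherent cells, the sum was 7005 to 7199.6, and 16 were higher and 1 lower than at 16 h. Of 20 mitosis genes, 19 fell at 16 h and 19 fell and 1 rose at 5 d, with medians of -0.98 and -0.84. Depth and mitochondrial share moved with the groups too: mitochondrial genes took 8.55 to 8.56% of reads at 16 h and 9.65 to 9.74% at 5 d, against 6.83 to 6.89% in adherent cells.

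With SCIRT siRNA, many recombination and Fanconi genes were lower than with siNC, and none of the 37 genes was called higher. With siSCIRT 1, 17 of 37 fell, where 5.56% of all 16607 genes tested were lower and 4.63% higher. With siSCIRT 2, 16 fell, where 5.05% were lower and 4.49% higher. Their medians were -0.39 and -0.33, against 0.01 over all genes in each, and both comparisons share the siNC libraries. With the mean of both siRNAs against siNC, 19 fell, where 7.58% of all genes were lower and 6.82% higher. Between the siRNAs, limma called none of the 37 for siSCIRT 1 over siSCIRT 2 and none of all genes, with 1 of the 37 and 451 of all genes at an unadjusted p under 0.05. edgeR called 0 of all genes there and DESeq2 called 6, none of them among the 37.

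BRCA1, BRCA2 and BARD1 fell with each SCIRT siRNA. BRCA1 had 569, 586 and 529 normalized counts with siSCIRT 1 and 573, 508 and 637 with siSCIRT 2, against 1013, 943 and 1225 with siNC. All 6 siRNA libraries were below all 3 controls, at -0.91 ± 0.11 and -0.88 ± 0.11 on the log2 scale (limma, adjusted p = 0.00011 and 0.00021). BRCA2 had 398, 407 and 441 normalized counts with siSCIRT 1 and 469, 516 and 405 with siSCIRT 2, against 645, 706 and 737 with siNC, and fell by 0.74 ± 0.11 and 0.59 ± 0.11 (adjusted p = 0.00039 and 0.0024). BARD1 fell by 0.51 ± 0.11 and 0.43 ± 0.11. Its siSCIRT 2 call was lost without siNC library 1 or 3 or siSCIRT 2 library 2 or 3 (adjusted p between 0.0505 and 0.0994). PALB2 did not pass the test (-0.11 ± 0.10 and -0.12 ± 0.10).

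Among the factors of strand exchange, RAD51AP1 had 362, 352 and 370.1 normalized counts with siSCIRT 1 and 354, 406 and 336 with siSCIRT 2, against 666, 462 and 672 with siNC. No siRNA library reached the lowest control, and it fell by 0.71 ± 0.14 and 0.70 ± 0.14 (limma, adjusted p = 0.0033 and 0.0041). RAD54L fell with siSCIRT 1 (-0.64 ± 0.13, adjusted p = 0.0054), and with siSCIRT 2 its libraries overlapped siNC (-0.32 ± 0.13, adjusted p = 0.15). For the mean of both it fell by 0.48, a call lost without siNC library 3 (-0.33, adjusted p = 0.0987). RAD54B was called for the mean of both only (-0.65 ± 0.18, adjusted p = 0.028), which was lost when any of 6 libraries was left out (adjusted p up to 0.101). Of RAD51C, RAD51D, XRCC2 and XRCC3, only XRCC2 was called, at -0.71 ± 0.16 and -0.67 ± 0.16, where all 4 had fallen in 16 h spheres. It had 227, 325 and 299 normalized counts with siSCIRT 1 and 236, 343 and 293 with siSCIRT 2, against 421, 445 and 512 with siNC. Without siNC library 3 the adjusted p was 0.059 for siSCIRT 1 and 0.0813 for siSCIRT 2, and without siSCIRT 2 library 1 it was 0.0609 for siSCIRT 2. Without a trend neither call held (adjusted p = 0.0562 and 0.0713). EXO1 had 449, 504 and 475 normalized counts with siSCIRT 1 and 391, 520.1 and 478 with siSCIRT 2, against 860.1, 697 and 1039.9 with siNC, and fell by 0.84 ± 0.14 and 0.89 ± 0.14 (adjusted p = 0.00095 and 0.00078). RBBP8 fell by 0.50 ± 0.08 and 0.47 ± 0.08, while ATM, RAD50, NBN and MRE11A did not pass the test, with differences between -0.17 and 0.17.

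In the Fanconi pathway, FANCD2, FANCI and BRIP1 fell with each siRNA. Of the 9 genes of the core complex counted with UBE2T, UBE2T and FANCA did. FANCD2 had 434, 538 and 461 normalized counts with siSCIRT 1 and 448, 544 and 438 with siSCIRT 2, against 806, 805 and 974 with siNC. The siRNA libraries were all lower, at -0.85 ± 0.12 with each siRNA (limma, adjusted p = 0.00029 and 0.00035). FANCI had 1197, 1338 and 1209 normalized counts with siSCIRT 1 and 1199, 1411 and 1249 with siSCIRT 2, against 2004, 1878 and 2399 with siNC. It fell by 0.74 ± 0.10 and 0.70 ± 0.10, BRIP1 by 0.63 ± 0.10 and 0.75 ± 0.10, and UBE2T by 0.66 ± 0.12 and 0.60 ± 0.12, where the second missed the threshold without a trend (adjusted p = 0.0619). Of the core complex itself, FANCA fell with each siRNA (-0.60 ± 0.11 and -0.57 ± 0.11). FANCG fell only for their mean (-0.32 ± 0.09, adjusted p = 0.026), a call lost when any of 5 libraries was left out (adjusted p between 0.0517 and 0.198) and without a trend (adjusted p = 0.103). FANCC and FANCE, low in 16 h spheres, did not pass the test here: FANCC was at 0.15 ± 0.10 and 0.18 ± 0.10, and FANCE at -0.05 ± 0.09 and -0.09 ± 0.09.

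NEIL3 and the junction genes EME1 and BLM fell with each SCIRT siRNA. NEIL3 had 235, 183 and 206 normalized counts with siSCIRT 1 and 238, 186 and 188 with siSCIRT 2, against 421, 367 and 471 with siNC. It fell by 1.01 ± 0.14 and 1.04 ± 0.14 (limma, adjusted p = 0.00037 and 0.00038), the only fall of at least 2-fold among the 37 with either siRNA, where 0.223% and 0.187% of all genes fell that far. EME1 had 130, 151 and 150 normalized counts with siSCIRT 1 and 156, 165 and 186 with siSCIRT 2, against 277, 241 and 343 with siNC. All siRNA libraries were below the controls, at -0.98 ± 0.15 and -0.75 ± 0.15, and BLM fell by 0.57 ± 0.11 and 0.58 ± 0.11. LRRC59, which overlaps EME1 on the other strand, averaged 10498 normalized counts over the siSCIRT libraries, against 200 for EME1, so the level of EME1 is uncertain. CHEK1 had 1729.7, 1610.2 and 1612 normalized counts with siSCIRT 1 and 1681, 1681 and 1642 with siSCIRT 2, against 2162, 2175 and 2129 with siNC. These values were tight within groups, and CHEK1 fell by 0.39 ± 0.07 and 0.37 ± 0.07 (adjusted p = 0.0014 and 0.0021), whereas ATR, CHEK2, MSH6 and PMS2 did not pass the test.

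Genes of the wider pathway followed in part: of 69 tested, 15 fell and 1 rose with siSCIRT 1 and 17 fell and 1 rose with siSCIRT 2. RPA1, which coats exposed strands, fell by 0.80 ± 0.07 with siSCIRT 1 and by 0.32 ± 0.07 with siSCIRT 2 (limma, adjusted p = 1.4e-05 and 0.011). It had 4417 to 4637 normalized counts with siSCIRT 1 and 6076 to 6504 with siSCIRT 2, against 7080.4 to 8709.6 with siNC, and the difference between the siRNAs was -0.48 ± 0.07 (adjusted p = 0.13). POLQ, the polymerase of microhomology end joining, fell by 0.84 ± 0.13 and 0.75 ± 0.13. End joining had 0 and 1 of 11 genes lower, base excision repair 2 and 1 of 18, and nucleotide excision repair 0 and 0 of 18. All 22 S-phase genes and all 20 mitosis genes fell with each siRNA. The S-phase sum was 37094 to 39814 normalized counts with siSCIRT 1 and 38469 to 40649 with siSCIRT 2, against 49347 to 65234 with siNC. The mitosis sum was 67568 to 69987 with siSCIRT 1 and 71809 to 75912 with siSCIRT 2, against 110727 to 143674 with siNC. The part of either in the falls of the repair genes was not tested. Depth was 57218620 to 62218847 reads with siNC, against 49296640 to 52307932 with siSCIRT 1 and 38635418 to 56217855 with siSCIRT 2. Mitochondrial genes took 6.113 to 6.597% of reads with siNC, against 5.758 to 6.111% with siSCIRT 1 and 5.538 to 6.111% with siSCIRT 2. The part of depth and mitochondrial share was not tested either. The 7 blood, vessel and stromal markers listed summed to 1983 to 2128 with siSCIRT 1 and 1910.1 to 1982 with siSCIRT 2, against 1743 to 1992 with siNC. Of them CD14 was called higher with siSCIRT 1 (0.47 ± 0.10, adjusted p = 0.0071) and stood at 0.24 ± 0.10 with siSCIRT 2 (adjusted p = 0.16).

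With siEZH2 the direction was upward: 12 of 37 genes rose against siNC and none fell, where 3.9% of all 15823 genes tested were higher and 2.94% lower. The median was 0.26, against 0.01 over all genes. These calls rest on 2 libraries a group and on how the spread is modelled: limma without a mean-variance trend called none of the 37 and none of all genes, with 17 of the 37 and 2471 of all genes at an unadjusted p under 0.05. edgeR called 11 and DESeq2 called 5, and 3 were called without siEZH2 library 1 (2 higher and 1, NBN, lower) and 3 without siNC library 2. None of the 12 was kept under every alternative, although each stayed higher in siEZH2 under all of them.

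**Figure D4:**
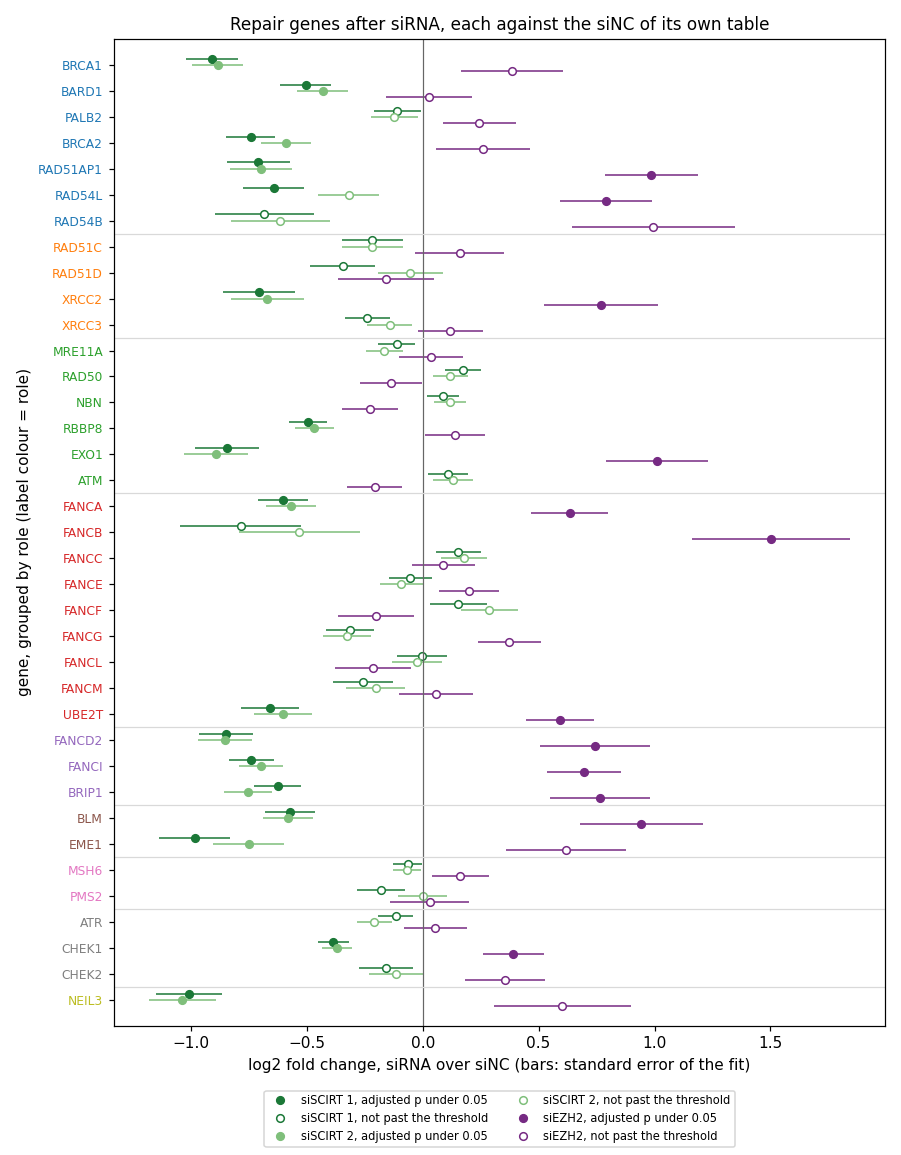
Log2 fold change of the 37 repair genes (x axis) with siSCIRT 1 and siSCIRT 2 (dark and light green) and siEZH2 (purple), each over the siNC of its own table, with standard errors of the limma fit. Filled points passed an adjusted p of 0.05. Filled green points all lie below 0 and filled purple points all lie above it, and siSCIRT 1 and siSCIRT 2 share their siNC libraries.

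Of the strand exchange genes 2 of 7 rose, and of the genes that sense and process ends 1 of 6. RAD51AP1 had 193 and 111 normalized counts with siEZH2, against 72.7 and 74.3 with siNC. The siEZH2 libraries were far apart but both above siNC, and the log2 fold change was 0.99 ± 0.20 (limma, adjusted p = 7.8e-05), or 0.59 (adjusted p = 0.151) without siEZH2 library 1. EXO1 had 132 and 94.1 normalized counts with siEZH2, against 57.4 and 52.3 with siNC, and rose by 1.01 ± 0.22 (adjusted p = 0.00025), or 0.77 (adjusted p = 0.0648) without siEZH2 library 1. RAD54L had 153 and 131 normalized counts with siEZH2, against 84.1 and 78.9 with siNC, and rose by 0.79 ± 0.20 (adjusted p = 0.0027). XRCC2 had 73.4 and 66.9 normalized counts with siEZH2, against 40.2 and 41.3 with siNC, and rose by 0.77 ± 0.25 (adjusted p = 0.032), and RAD51C, RAD51D and XRCC3 did not pass the test. The RAD54L call was lost without siEZH2 library 1 or siNC library 2 (adjusted p = 0.068 and 0.0683), and the XRCC2 call without any 1 of the 4 libraries (adjusted p between 0.0656 and 0.234). BRCA1 (0.39 ± 0.22), BRCA2 (0.26 ± 0.20) and BARD1 (0.03 ± 0.18), which fell with SCIRT siRNA, did not pass the test.

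The Fanconi genes that rose were FANCB, FANCA, UBE2T, FANCD2, FANCI and BRIP1. FANCB had the largest log2 fold change of the 37, 1.503 ± 0.340 (limma, adjusted p = 0.0006), on few reads: 36.1 and 38.9 normalized counts, from 29 and 43 reads, with siEZH2, against 14.3 and 11.01, from 15 and 12 reads, with siNC. FANCI had 350 and 285 normalized counts with siEZH2, against 207 and 182 with siNC, and FANCA had 259 and 279 against 174 and 172. Neither overlapped, at 0.70 ± 0.16 (adjusted p = 0.00078) and 0.63 ± 0.17 (adjusted p = 0.0046). UBE2T rose by 0.59 ± 0.15, BRIP1 by 0.76 ± 0.21 and FANCD2 by 0.74 ± 0.24. The FANCI, UBE2T and BRIP1 calls were lost without siEZH2 library 1 or siNC library 2, the FANCA call without either siNC library, and the FANCD2 call without siEZH2 library 1 or either siNC library, at adjusted p between 0.0558 and 0.33. BLM had 67.2 and 55.2 normalized counts with siEZH2, against 35.4 and 27.5 with siNC, and rose by 0.94 ± 0.27 (adjusted p = 0.01). CHEK1 rose by 0.39 ± 0.13 (adjusted p = 0.045). BLM was lost without siEZH2 library 1 or siNC library 2 (adjusted p = 0.129 and 0.219), and CHEK1 without siEZH2 library 1 or either siNC library (adjusted p between 0.183 and 0.436).

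Of the wider pathway, 5 of 69 genes rose with siEZH2 and none fell. POLQ had 51.0 and 40.7 normalized counts with siEZH2, against 15.3 and 11.9 with siNC, and the helicase gene RECQL4 had 718 and 758 against 381 and 414. None of the end joining, base excision and nucleotide excision genes was called. Of the reference genes, 16 of 22 for S phase and all 20 for mitosis rose, with medians of 0.61 and 1.06. The S-phase sum was 19161 to 19897 normalized counts with siEZH2, against 13950 to 14097 with siNC, and the mitosis sum was 14071 to 17448 against 7475 to 8120.04. The part of either in these rises was not tested. The 8 blood, vessel and stromal markers listed summed to 629.7 to 837 with siEZH2, against 610.02 to 757 with siNC, and CD14 was called lower (-0.62 ± 0.19, adjusted p = 0.023).

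Across the tables, 10 of the 36 genes tested in every table were lower in 16 h spheres than in adherent cells, lower with the mean of the SCIRT siRNAs and higher with siEZH2, each against its own controls, a pattern that 1.85% of the 12559 genes tested in all 3 tables had. They were RAD51AP1, RAD54L, XRCC2, EXO1, FANCA, UBE2T, FANCD2, FANCI, BRIP1 and BLM. SCIRT itself was higher in 16 h spheres than in adherent cells (3.10 ± 0.41, limma, adjusted p = 4.2e-08), from 3.77 and 3.04 normalized counts to 45.8 and 29.3. EZH2 was lower there (-1.63 ± 0.12, adjusted p = 5.3e-15). Each thus moved at 16 h in the direction opposite to, for SCIRT, or the same as, for EZH2, its own siRNA, and the part of either was not tested. RAD54L was not called with siSCIRT 2, and without siNC library 3 it was not called for the mean. The 19 genes lower with SCIRT siRNA and the 12 higher with siEZH2 shared 11, these 10 and CHEK1, or 57.9% of the first list and 91.7% of the second. The 22 genes lower at 16 h shared 15 with the 19, or 68.2% and 78.9%, and 10 with the 12, or 45.5% and 83.3%. No test was made of these overlaps, and the share of all genes in each pair of lists was not counted. The overlaps are therefore not shown to be particular to the repair genes. All 20 mitosis genes also fell with the mean of the SCIRT siRNAs and rose with siEZH2, and 19 of them were lower at 16 h. All 22 S-phase genes fell at 16 h and with that mean, and 16 of them rose with siEZH2. The pattern of all 3 tables was thus held by 19 of 20 mitosis and 16 of 22 S-phase genes, against 10 of the 36 repair genes. The fit of siEZH2 carries the limits given above. MRE11A, FANCF, FANCM and MSH6 were called in no comparison. The genes called at 16 h and in neither siRNA table were ATM, RAD50, PALB2, RAD51C, RAD51D, XRCC3, FANCC, FANCE and FANCL.

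**Figure D5:**
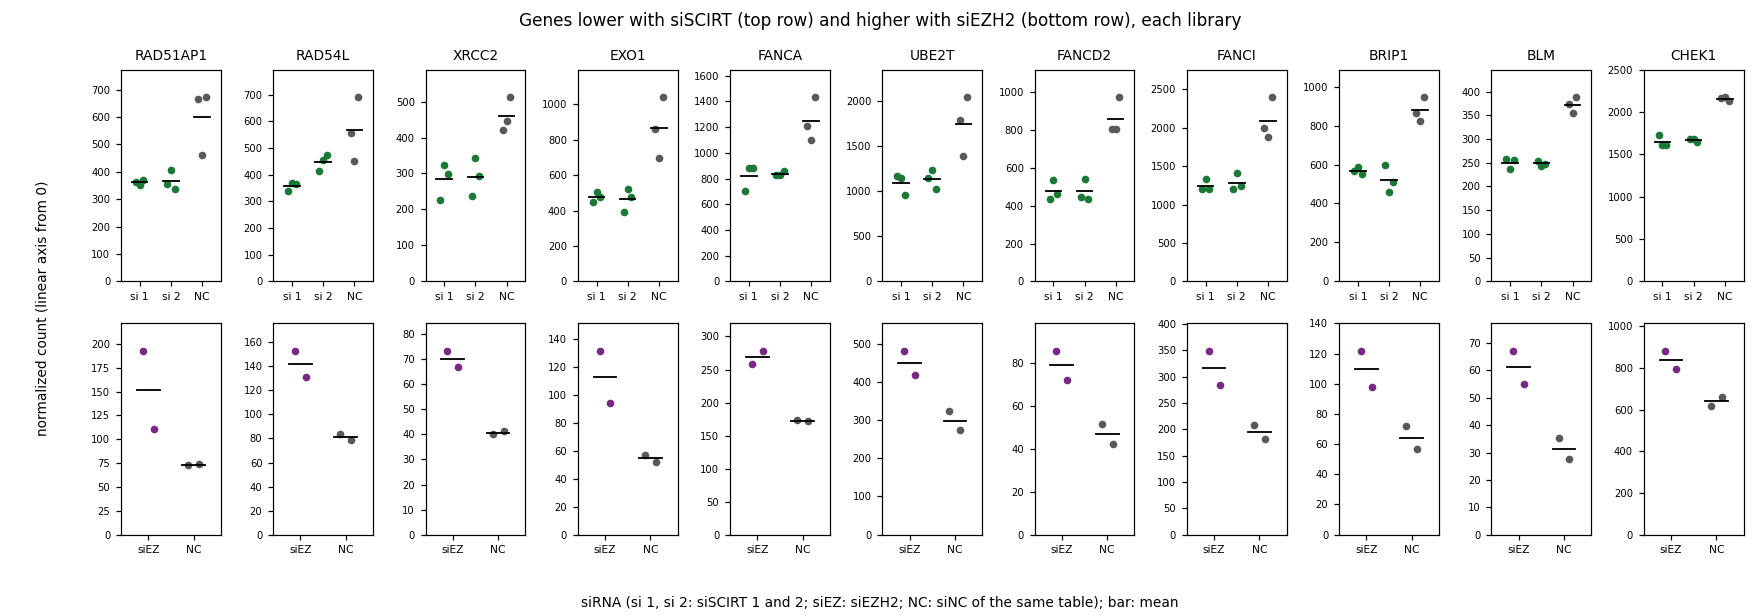
Normalized counts (y axis, linear from 0, own scale per panel) of the 11 genes called lower with the mean of the SCIRT siRNAs (top row, 3 libraries a group) and higher with siEZH2 (bottom row, 2 libraries a group). Points are libraries, bars are means, and grey points are siNC. Every siEZH2 library lies above its controls, and with SCIRT siRNA only RAD54L overlaps siNC, through siSCIRT 2.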

How the data were processed

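RNA-seq libraries of MDA-MB-231 cells were prepared with TruSeq RNA v2, per the labels' protocols. Tools listed without roles, per the submitters' processing notes, are CASAVA 1.4, Partek and TopHat2, beside the build hg19. For culture and siSCIRT, the authors deposited values on a log2 scale after a variance-stabilising transformation, by the form of the values. The siEZH2 table holds linear normalized counts as deposited (signal), that is reads divided by size factors. Both kinds were turned back into whole reads, with all values within 0.05 of a whole number in 19 of 19 libraries. No column belonged to samples outside the study.

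The test was limma 3.58.1 in R 4.3.3, with trend and robust variance, on log2(normalized count + 1), so fold changes of low genes are understated. Genes needed a mean of 10, p-values were adjusted by Benjamini-Hochberg over all genes of a table, and the threshold was 0.05. All groups of a table shared 1 fit, and tables were never compared for level. The deposited tables were assumed to be linear when the test was designed, and the log2 tables were converted first. Alternatives were edgeR 4.0.16, DESeq2 1.42.0 (both on recovered reads), other filters, pseudocounts and scalings, a replicate block and leaving out each library. The fits were tested on simulated data. The 3 siSCIRT 1 columns carry no siRNA name and were assigned because every other column was named.

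The 37 genes and all other lists were chosen with earlier results of these data known. Named genes are the 37, the siRNA targets, and, of the other pathway genes, up to 4 a comparison with the smallest adjusted p, some of which are not reported here. Library kits without strand marks cannot separate overlapping genes on opposite strands, which exon bases of GENCODE 29 were used to list.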

Additional observations from a re-analysis of the deposited data

Results flagged for a closer look

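The 16 h and 5 d spheres differed from each other in 13 of the 36 genes tested, by the limma test of 5 d over 16 h. Of all 13789 genes tested there, 22.8% were higher and 25.5% lower at 5 d, so such calls were no more frequent among the repair genes. XRCC2 was higher at 5 d by 1.94 on the log2 scale, EXO1 by 1.55, BLM by 1.52, RAD51AP1 by 1.12, BRIP1 by 1.11 and BRCA1 by 1.02. Smaller rises were those of RAD51C at 0.86, RBBP8 at 0.65, FANCC at 0.53, FANCL at 0.44 and RAD50 at 0.29. EME1 and CHEK2 were lower at 5 d, at -0.91 and -0.73. XRCC2, EXO1, BRIP1, BRCA1, RAD51C, RBBP8 and EME1 kept these calls under every alternative run, and the other 6 did not.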

How the results depend on the processing

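No value changed direction past the threshold under any alternative. The median log2 fold change of the genes at 16 h was -0.91 with no filter on low values and -0.61 with a mean of at least 50, and lay between -0.85 and -0.64 with 1 library left out. With 1 library left out, the median lay between -0.60 and -0.40 at 5 d, between 0.18 and 0.37 for 5 d over 16 h, and between -0.47 and -0.22 for siSCIRT 2. For siEZH2, 12 genes were called, against 0 without a variance trend, 5 with DESeq2 and 3 to 12 with 1 library left out: 3 without siEZH2 library 1, 3 without siNC library 2 and 8 without siNC library 1. All-gene calls there numbered 1082 by limma, 678 by DESeq2 and 532 with the replicate block. Over all genes, siSCIRT 1 gave 1693 calls, against 1009 without a variance trend and 887 without siNC library 3. siSCIRT 2 gave 1584, against 870 without a trend, 2651 with the replicate block, 1298 with only its 2 groups fitted and 769 without siNC library 3. Their mean gave 2390, against 1242 without siNC library 3, and siEZH2 gave 342 without siNC library 1. The cause was not tested. Calls kept under every alternative were 18 of 22 falls at 16 h, 11 of 17 at 5 d, 16 of 17 with siSCIRT 1, 13 of 16 with siSCIRT 2 and 0 of 12 rises with siEZH2.

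Nothing in the labels says that a replicate number marks a shared day or culture. Correlations of same-numbered deviations were -0.009 to 0.019 in culture and -0.0854 for siEZH2. Between siSCIRT 2 and siNC they were 0.0568 to 0.205 and each library correlated best with its own number, so pairing there is undecided. With the replicate block, calls numbered 25 at 16 h, 23 at 5 d, 13 for 5 d over 16 h, 17 for siSCIRT 2 and 7 for siEZH2. No paired analysis was possible for siSCIRT 1 because its columns carry no number. Depth limits several genes in culture, among them RAD54B, FANCB, BLM, XRCC2, NEIL3, RAD51D, RAD51AP1 and FANCD2, with few reads at 16 h. NEIL3 had 11 and 18 reads there, RAD51D 21 and 12, RAD51AP1 19 and 18, and FANCD2 17 and 28.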
